A study of Mus musculus with 16 samples.

Results

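RNA of mesenteric visceral adipose tissue (VAT) was compared between obese and lean mice across all genes, with most weight on genes and processes outside the study's table of top VAT genes. The comparison uses the libraries whose labels give VAT as tissue, 4 from obese and 4 from lean mice, out of 16 libraries in the series. The other 8 come from inguinal subcutaneous adipose tissue (SAT) of the same mice and are used below only where a VAT change is set against the change in SAT. All animals were wild-type male C57BL/6J mice without an introduced allele. Obese mice ate food that drew 42% of energy from fat, with 0.2% cholesterol for 12 to 14 months, starting at 10 weeks of age, and lean mice ate a normal laboratory diet over that time. Each library is 1 mouse, visible blood vessels were taken off the fat before RNA extraction, and no cell type was sorted. In such whole tissue, fewer cells of a type and less RNA per cell cannot be told apart, and this holds for every value below.

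Mesenteric fat lies between the sheets that hold the intestine, and its blood drains to the liver. Its adipocytes take up glucose and fatty acids under insulin, store them as triglyceride and release them when the body needs fuel. Adipocytes share the tissue with macrophages, lymphocytes, mast cells, progenitors, vessels and a covering layer of mesothelium. In obesity, macrophages are known to gather around dying adipocytes, to digest their lipid in lysosomes and at times to fuse into multinucleated giant cells.

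The libraries held 1256082 to 15802634 counts in lean VAT and 2247737 to 11615347 in obese VAT. Lean replicate 1 and obese replicate 1 are the shallow ones, and 1 count stands for 0.641 and 0.383 TMM-scaled CPM (counts per 1000000 counts of the library) there, against at most 0.110 in the other 6. Mitochondrially encoded genes took 14.9% to 18.6% of the counts in lean and 9.81% to 13.7% in obese VAT, so the groups did not overlap. Each entry of the table is a RefSeq transcript, and the 13288 entries that exceeded 1 CPM in 3 or more of the 16 libraries entered edgeR's quasi-likelihood F-test. CPM values below are scaled with TMM factors and given for replicates 1 to 4 in that order, a log2 fold change is obese against lean ("rose by" with a number gives that log2 value) with its standard error (SE), and adjusted p is Benjamini-Hochberg over all tested entries. Where a gene has several transcripts its reads may be split or discarded, so a low CPM of such a gene is not read as low expression. The adipocyte hormone gene Adipoq stood at 4758, 6463, 7186 and 6128 CPM in lean and 2713, 4349, 5209 and 4179.9 CPM in obese VAT, so all 8 libraries carry adipose tissue RNA.

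Obese VAT differed from lean VAT in 1449 entries, 906 upregulated (6.82% of those tested) and 543 downregulated (4.09%). Beyond a log2 fold change of 1.5 in either direction, 310 were upregulated (2.33%) and 111 downregulated (0.835%). The libraries of the 2 diets did not overlap in 251 of the 310 and 85 of the 111, against 8.36% of all tested entries with every obese library higher and 4.99% with every obese library lower. The calls were made on these same libraries, so the lack of overlap is no separate support for them. Over all entries the median log2 fold change was 0.02. Obese replicate 4 held the highest obese value in 159 of the 310 upregulated entries (51.3%), and the shallow obese replicate 1 held the lowest in 57 of the 111 downregulated ones (51.4%). Ties, as between libraries with 0 counts, were credited to the lower replicate number. Of the 111 downregulated entries, 67 had an obese mean under 1 CPM, so the 57 may include such ties. Without obese replicate 4, 184 were upregulated and 70 downregulated beyond 1.5, or 525 and 339 at any size. At any size 354 entries were downregulated without lean replicate 3. Without both shallow libraries 278 of the 310 and 95 of the 111 were called again, and 141 and 46 were called in each of the 8 fits that leave out 1 VAT library. Of the 310 upregulated entries 253 were protein-coding and 33 long noncoding RNAs, and of the 111 downregulated 69 and 24, beside 9891 and 1711 of the 13288 tested.

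Genes were also read by list, each gene by its transcript with the highest mean CPM. Of 787 different genes tested in 52 lists, 175 were upregulated and 95 downregulated (116 upregulated without obese replicate 4). Immune lists held most upregulated members, whereas lists of glucose, pyruvate and amino acid use held downregulated members and no upregulated one.

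**Figure D1:**
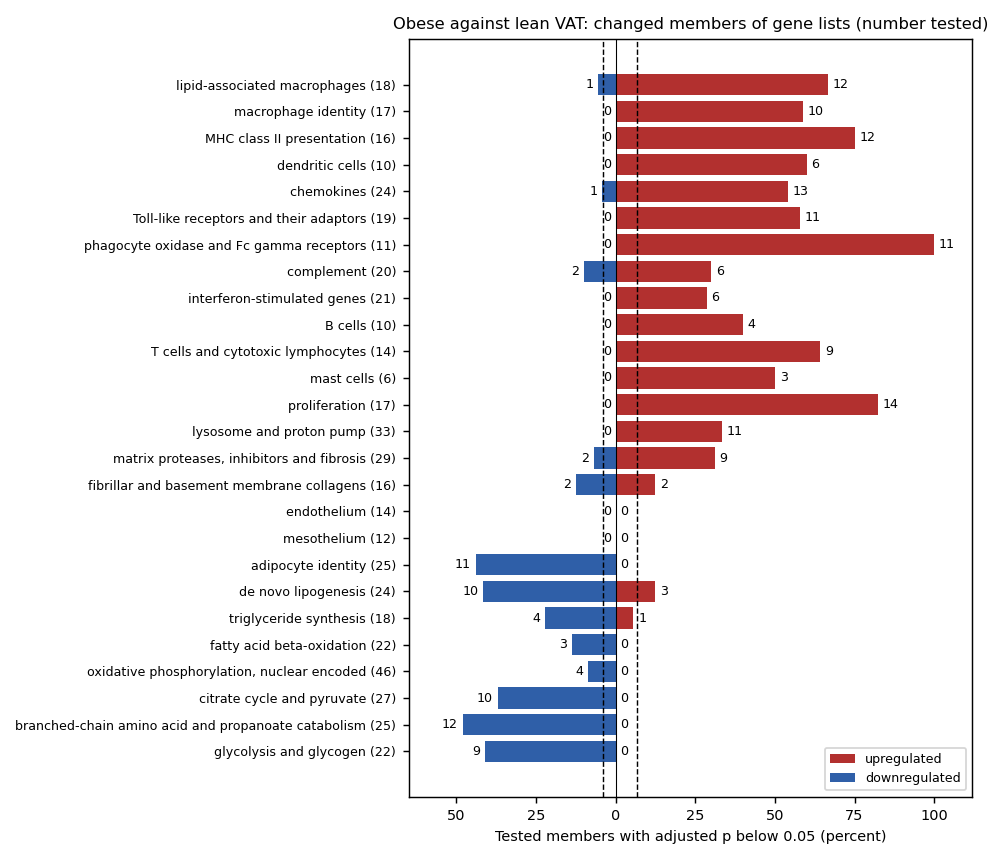
Share of the tested members of 26 gene lists that were upregulated (red, to the right) or downregulated (blue, to the left) in obese against lean VAT at an adjusted p below 0.05, in percent of the members tested. Dashed lines mark the share among all 13288 tested entries, 6.82% and 4.09%. Numbers beside the bars count the members. All 11 tested members of the phagocyte oxidase and Fc gamma receptor list lie to the right, and 12 of 25 members of the branched-chain amino acid list lie to the left.

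Macrophage genes were higher in obese VAT. Of 17 tested genes of macrophage identity 10 rose and none fell, with a median log2 fold change of 0.91. Cd68, a glycoprotein of macrophage lysosomes, measured 42.9, 41.6, 50.6 and 48.2 CPM in lean and 195, 224, 163 and 361 CPM in obese VAT. Every obese library held more than 3 times the highest lean value (log2 fold change 2.36, SE 0.19, adjusted p = 5.37e-08). Csf1r, the receptor for the macrophage growth factor CSF1, went from 439 ± 32.0 to 827 ± 113 CPM (mean ± SD, n = 4 each, log2 fold change 0.91, SE 0.13, adjusted p = 5.26e-05). The mannose receptor gene Mrc1, high in resident macrophages of fat, rose by 0.75 (adjusted p = 0.000298). Marco, a scavenger receptor, was highest in obese replicate 2. Its obese values were 5.75, 203, 10.6 and 41.1 CPM against 19.9, 9.39, 4.29 and 5.08 CPM in lean VAT, the groups overlapped, and its call (log2 fold change 3.06, adjusted p = 0.00557) was lost without that library (log2 fold change 1.31 without obese replicate 2, adjusted p = 0.0959 without obese replicate 2). Adgre1 did not pass the filter on low counts.

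Genes of lipid-laden macrophages were among those with large rises. The list drawn from macrophages that take up adipocyte lipid had 12 of 18 members upregulated and 1 downregulated (median log2 fold change 0.64). Upregulated members numbered 7 without obese replicate 4. Gpnmb, a membrane glycoprotein of such macrophages on chromosome 6 from 49013426 to 49047863 (GRCm39), had 25.6, 19.9, 33.1 and 26.4 CPM in lean and 228, 246, 199.7 and 1067 CPM in obese VAT (log2 fold change 4.06, SE 0.43, adjusted p = 1.48e-06, log2 fold change 3.07 without obese replicate 4). The obese values of replicates 1 to 3 lay close together and replicate 4 was more than 4 times as high, yet all 4 exceeded every lean library. Itgax, which codes for the integrin CD11c and lies on chromosome 7 from 127728668 to 127749829, stood at 19.2, 18.1, 11.3 and 16.4 CPM in lean and 128, 109.3, 93.1 and 235 CPM in obese VAT (log2 fold change 3.16, SE 0.32, adjusted p = 9.04e-07). Lgals3, the lectin galectin-3, rose from 3.62 ± 2.8 to 19.8 ± 7.77 CPM, and the tetraspanin Cd9 from 139 ± 31.5 to 287 ± 138 CPM. Trem2, a lipid receptor of these cells, was seen at low CPM in 1 of its 2 transcripts, 2.56, 0.239, 0 and 0.221 in lean and 2.3, 4.13, 2.3 and 6.00 in obese VAT (log2 fold change 3.62, SE 0.64, adjusted p = 0.000571, log2 fold change 4.40 without lean replicate 1), and the shallow lean replicate 1 overlapped with the obese group. The 1 member that fell was Lpl, lipoprotein lipase, which adipocytes also make in large amounts (-0.59, adjusted p = 0.0017). Cd36, Fabp5 and Apoe, further members with high expression outside macrophages, had log2 fold changes of -0.15, 0.20 and 0.05 that did not pass the test.

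Digestion in the lysosome was touched in parts. Of 33 tested genes of lysosome and proton pump 11 rose and none fell, whereas with counts summed per gene 8 rose and 2 fell. The count of 11 was 3 without obese replicate 4, 6 without lean replicate 1 and 7 without lean replicate 2 and obese replicate 2. The proton pump subunit Atp6v0d2, found in osteoclasts and macrophages, stood at 0, 0.598, 1.07 and 0.663 CPM in lean and 19.5, 23.4, 18.1 and 55.8 CPM in obese VAT (log2 fold change 5.36, SE 0.43, adjusted p = 5.37e-08), and rose by 3.65 with counts summed over its 2 transcripts. The widely used subunits Atp6v0d1, Atp6v0c and Atp6v1a, with log2 fold changes of -0.04, -0.29 and -0.20, did not pass the test. Among the cathepsins, the proteases of the lysosome, Ctsk, which osteoclasts use to degrade collagen, rose by 2.08 (adjusted p = 0.000424, and by 1.16 without obese replicate 4), Ctss by 2.17 (adjusted p = 2.90e-05) and Ctsz by 0.69 (adjusted p = 0.00196). Ctsk measured 29.5, 40.1, 42.0 and 53.4 CPM in lean and 83.6, 104, 100.1 and 419 CPM in obese VAT, and the high value again belonged to obese replicate 4. Of the 18 genes listed for giant cells and osteoclasts, 8 were tested and 3 rose (5 without obese replicate 1). The fusion genes Dcstamp and Ocstamp did not pass the filter on low counts, and Acp5, the tartrate-resistant phosphatase that marks osteoclasts, had a log2 fold change of 0.52 that did not pass (adjusted p = 0.306). Cholesterol export rose in Abcg1, which loads cholesterol onto lipoproteins, from 111, 91.5, 126 and 113 CPM in lean to 344, 314, 335 and 387 CPM in obese VAT (log2 fold change 1.65, SE 0.15, adjusted p = 1.88e-07). Its partner Abca1 had a log2 fold change of -0.07 (adjusted p = 0.832). The list of cholesterol synthesis, uptake and efflux had 4 of 26 genes up and 3 down (1 without lean replicate 3 and obese replicate 4 for those that fell). Ch25h, which oxidizes cholesterol in macrophages, rose by 1.91 (adjusted p = 0.00612), and Sqle, an enzyme of cholesterol synthesis, fell with a log2 fold change of -0.62 (adjusted p = 0.0186, and 0.0906 without both shallow libraries).

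**Figure D2:**
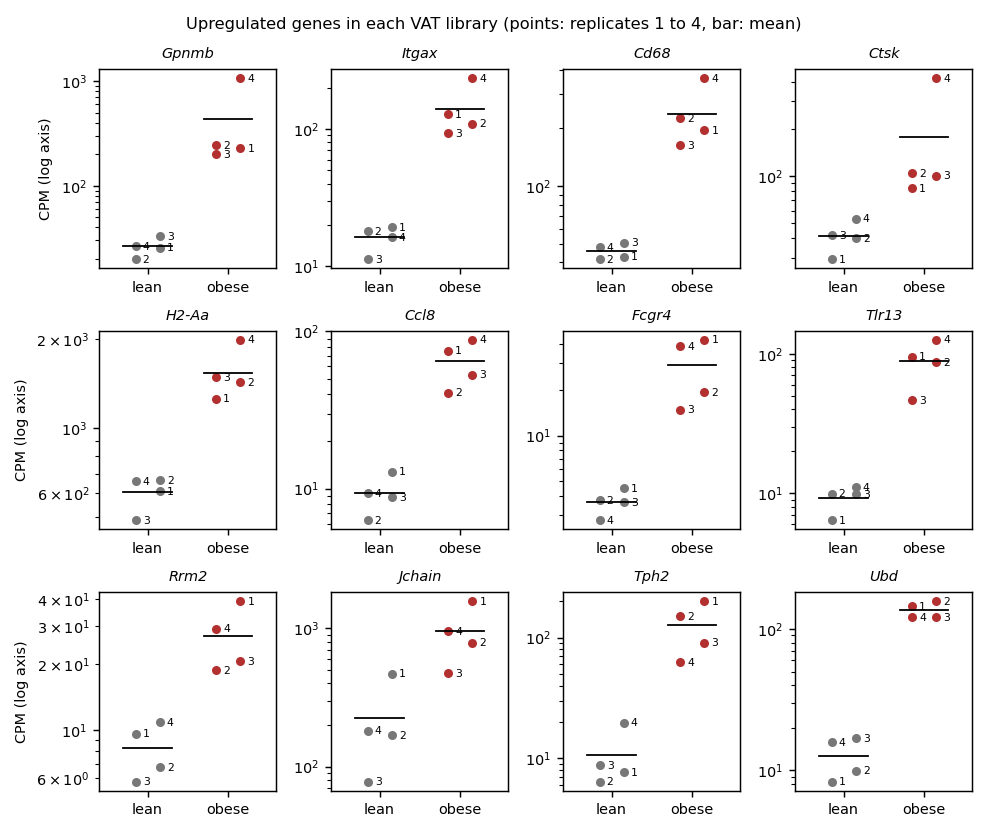
TMM-scaled CPM on a log axis for 12 genes that were upregulated in obese VAT, 1 panel per gene, with lean (grey) and obese (red) VAT side by side. Each point is 1 library numbered by replicate, and the bar is the mean of 4. Obese replicate 4 is the highest obese point for Gpnmb, Itgax, Cd68 and Ctsk, and obese replicate 1 for Tph2 and Jchain.

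Most tested genes of class II antigen presentation were upregulated. MHC class II molecules are pairs of an alpha and a beta chain that show peptides to CD4+ T cells, and they are made mainly by dendritic cells, macrophages and B cells. Their genes lie together on chromosome 17 and are switched on by the coactivator CIITA through short shared promoter boxes, of which the Y box is an inverted CCAAT motif. The Y box was searched as TGATTGG on both strands in the 250 bases before the start site. Of the 9 class II genes listed, 8 have a promoter in the RefSeq table used here (build GRCm38.p6), and 7 of the 8 hold the motif, against 7.23% of all 32851 promoters in that table. The last 110 bases before the start site are shown, with the motif in capitals, for the 6 of them whose RNA was upregulated in obese VAT, since these are the genes described next. The coordinates and strands of the windows are chr17:34287824-34287933 (minus) for H2-Aa, chr17:34305757-34305866 (plus) for H2-Eb1, chr17:34325565-34325674 (plus) for H2-Eb2, chr17:34153081-34153190 (plus) for H2-DMb1, chr17:34092269-34092378 (plus) for H2-Oa and chr17:34238795-34238904 (plus) for H2-Ob.
H2-Aa: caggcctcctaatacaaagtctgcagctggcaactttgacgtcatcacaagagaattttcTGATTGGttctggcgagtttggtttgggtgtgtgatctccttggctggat
H2-Eb1: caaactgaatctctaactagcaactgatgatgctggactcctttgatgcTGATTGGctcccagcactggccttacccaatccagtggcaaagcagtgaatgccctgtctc
H2-Eb2: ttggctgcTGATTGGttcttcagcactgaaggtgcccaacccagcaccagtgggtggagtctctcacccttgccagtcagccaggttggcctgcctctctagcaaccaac
H2-DMb1: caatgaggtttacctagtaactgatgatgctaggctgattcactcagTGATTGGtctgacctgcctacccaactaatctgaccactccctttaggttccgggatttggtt
H2-Oa: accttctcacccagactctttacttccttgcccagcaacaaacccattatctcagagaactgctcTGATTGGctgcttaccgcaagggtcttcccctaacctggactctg
H2-Ob: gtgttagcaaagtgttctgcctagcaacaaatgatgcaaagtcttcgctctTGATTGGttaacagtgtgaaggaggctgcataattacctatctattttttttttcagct
The first base of the motif lies 45 to 102 bases before the start site in the 7 promoters. H2-DMb2 holds it and H2-DMa does not, and neither RNA passed the test (log2 fold changes 0.66 and -0.24). The motif is a match of letters and was not measured as a binding site.

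Of 16 class II presentation genes 12 rose and none fell, with a median log2 fold change of 1.40. H2-Aa, the alpha chain of the I-A molecule, stood at 611, 664, 485 and 659 CPM in lean and 1256, 1430.0, 1485 and 1994 CPM in obese VAT. All obese libraries lay above all lean ones (log2 fold change 1.35, SE 0.15, adjusted p = 3.05e-06). RNA of H2-Eb1, which codes for the beta chain of I-E, had 557, 446, 351 and 441 CPM in lean and 972, 1012, 1129.6 and 1341 CPM in obese VAT (log2 fold change 1.32, SE 0.14, adjusted p = 2.38e-06). Whether these mice make I-E protein was not measured. Cd74, the invariant chain that guides class II molecules through the cell, rose by 1.15 (adjusted p = 0.000138), and the peptide-loading chain H2-DMb1 by 1.51 (adjusted p = 2.50e-06). H2-Eb2, a gene close to H2-Eb1, rose by 2.11 (adjusted p = 0.000857). Ifi30, a thiol reductase that unfolds antigens in lysosomes, went from 61.7 ± 7.64 to 195 ± 49.6 CPM (log2 fold change 1.68, SE 0.16, adjusted p = 3.82e-07). Ciita itself was barely counted, 1.92, 0.479, 0.214 and 0.442 CPM in lean and 0.383, 1.4, 1.63 and 4.28 CPM in obese VAT, the groups overlapped, and its call (adjusted p = 0.0439) was lost in several fits (adjusted p = 0.0536 to 0.301 without lean replicates 2, 3 and 4 and obese replicates 2, 3 and 4), with a log2 fold change of 2.05 and of 1.29 without obese replicate 4. H2-Oa and H2-Ob, which form a modulator of peptide loading in B cells, rose by 1.76 and 1.74 (adjusted p = 0.0176 and 0.0033) at few counts with overlapping groups, and H2-Oa was not called in 4 fits (adjusted p = 0.0634 to 0.101 without lean replicates 3 and 4 and obese replicates 2 and 4). The rise in VAT differed from SAT for 5 of the 16 genes, against 2.17% of all tested entries. For H2-Aa the log2 fold change was 0.30 in SAT, and the test of the difference between tissues, with the mouse as a block, gave 1.05 (SE 0.17, adjusted p = 0.00104). For H2-Eb1 the SAT value was 0.34 and the difference 0.99 (SE 0.16, adjusted p = 0.00128). H2-Ab1, the beta chain of I-A, differed by 1.11 (adjusted p = 0.000681), while the differences of Cd74 (adjusted p = 0.0208) and Ifi30 (adjusted p = 0.0381) did not pass in 4 and 6 of the 8 fits without 1 mouse (adjusted p = 0.076 to 0.102 without lean replicates 2, 3 and 4 and obese replicate 4 and adjusted p = 0.051 to 0.164 without lean replicates 1, 2, 3 and 4 and obese replicates 2 and 4). Dendritic cell genes rose in 6 of 10 tested members (3 without lean replicate 3 and obese replicates 2 and 4). Cd83, a surface protein of mature dendritic cells and activated B cells, rose by 2.11 (adjusted p = 9.30e-05).

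Receptors by which phagocytes sense antibodies and microbes were upregulated too. Every tested member of the phagocyte oxidase and Fc gamma receptor list rose (11 of 11, median log2 fold change 1.5, 7 without lean replicate 2). Fcgr4, an activating receptor for IgG, had 4.48, 3.77, 3.65 and 2.76 CPM in lean and 42.9, 19.4, 14.9 and 39.1 CPM in obese VAT (log2 fold change 3.01, SE 0.35, adjusted p = 4.61e-06). Its signaling chain Fcer1g and the related adaptor Tyrobp, which also serves TREM2, rose by 1.39 and 1.81 (adjusted p = 7.12e-06 and 2.48e-06), and both rose more than in SAT (adjusted p of the difference 0.00777 and 0.021, the latter lost in 3 fits with adjusted p = 0.0514 to 0.108 without lean replicate 4 and obese replicates 2 and 4). Cyba, a subunit of the oxidase that makes superoxide, rose by 1.5 (adjusted p = 0.000344). Among Toll-like receptors and adaptors 11 of 19 rose. Tlr13, which senses bacterial ribosomal RNA and lies on chromosome X from 105186810 to 105204533, stood at 6.41, 9.93, 9.86 and 11 CPM in lean and 95.4, 87.6, 46.4 and 126 CPM in obese VAT (log2 fold change 3.18, SE 0.25, adjusted p = 5.37e-08). Tlr7, Tlr8 and Tlr9, further receptors that sit inside the cell and bind nucleic acids, rose by 1.62, 1.57 and 1.51 (adjusted p = 7.72e-05, 0.00424 and 0.00018). Tlr4, the receptor of bacterial endotoxin at the cell surface, was 13.5, 12.6, 9.54 and 13.1 CPM in lean and 9.97, 12.6, 10.1 and 12.8 CPM in obese VAT and did not pass the test (log2 fold change -0.07), and neither did Tlr2 (0.79) nor the adaptor Myd88 (0.30). The complement list was mixed, with 6 of 20 members up and 2 down (1 without lean replicate 1 and obese replicates 2, 3 and 4). C1qb, part of the C1q complex that macrophages secrete, rose from 186 ± 23.5 to 519.9 ± 72.5 CPM (log2 fold change 1.49, SE 0.14, adjusted p = 3.82e-07), whereas C2, a protease zymogen of the classical pathway, fell from 431 ± 63.9 to 234 ± 24.3 CPM (log2 fold change -0.88, SE 0.18, adjusted p = 0.00255).

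Chemokines, the proteins that draw leukocytes into tissue, were upregulated in 13 of 24 tested genes. Cxcl11, at low CPM, was downregulated (-1.13, adjusted p = 0.0256, lost in 3 fits with adjusted p = 0.0591 to 0.0969 without lean replicate 3 and obese replicates 2 and 4). Ccl8, a ligand that attracts monocytes and T cells, showed 12.8, 6.28, 8.79 and 9.39 CPM in lean and 75.1, 40.7, 53.0 and 88.5 CPM in obese VAT, a clear gap between the groups (log2 fold change 2.89, SE 0.27, adjusted p = 2.51e-07). Its rise exceeded that in SAT, where the log2 fold change was 1.32 (difference 1.44, SE 0.25, adjusted p = 0.00207). Ccl9 and Ccl6, which mouse macrophages make in large amounts, rose by 1.63 and 1.18 (adjusted p = 3.61e-06 and 9.73e-05). Ccl5, a chemokine of T cells, rose by 1.91 and Ccl22, one of dendritic cells, by 2.01 (adjusted p = 0.000314 and 0.00241), the latter by 1.32 without obese replicate 2. The monocyte attractant Ccl2, often studied in obesity, had 13.5, 19.0, 12.2 and 26.3 CPM in lean and 26.4, 36.1, 20.7 and 23.9 CPM in obese VAT and did not pass the test (log2 fold change 0.56, adjusted p = 0.284). Its receptor Ccr2 did not pass either (0.45, adjusted p = 0.624). Of 13 chemokine receptors 6 rose, among them Cxcr4 (2.06, adjusted p = 0.000107), Cxcr3 of T cells (1.52, adjusted p = 0.000424) and Ccr7 of migrating dendritic cells (2.17, adjusted p = 0.00124).

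Cytokine genes were sparse in these libraries. Of 26 listed TNF family and other cytokine genes 11 passed the filter and 3 rose (1 without obese replicate 4 and 5 without lean replicate 1), and Tnf was not among those tested. Tnfrsf1b, the second TNF receptor, went from 49.6 ± 9.22 to 97.4 ± 15.2 CPM (log2 fold change 0.98, SE 0.16, adjusted p = 0.000271). In the interleukin-1 list 3 of 7 tested genes rose. The inhibitor Il1rn had 0, 0.12, 0.214 and 0.331 CPM in lean and 1.53, 2.56, 1.53 and 5.14 CPM in obese VAT (log2 fold change 3.78, SE 0.61, adjusted p = 0.000259), and the inflammasome adaptor Pycard rose by 1.03 (adjusted p = 0.00114). Interferon-stimulated genes rose in 6 of 21 tested members with a median log2 fold change of 0.45, a count that fell to 2 without obese replicate 4 and 3 without lean replicates 3 and 4 and obese replicate 2. Bst2, which tethers viruses to the cell surface, was the member of the list with the smallest p (log2 fold change 0.60, SE 0.13, adjusted p = 0.0026). Ubd, a ubiquitin-like modifier induced by inflammatory cytokines, stood well apart at 8.33, 9.99, 16.8 and 15.8 CPM in lean and 145, 157, 121 and 121 CPM in obese VAT (log2 fold change 3.35, SE 0.43, adjusted p = 1.79e-05), with a log2 fold change of 2.54 in SAT.

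Part of the tested lymphocyte genes were upregulated in obese VAT, and the counts depended on single libraries. Of 14 T cell and cytotoxic genes 9 rose and none fell (median log2 fold change 1.35), and the count was 3 without obese replicate 4, 4 without lean replicate 4 and 5 without lean replicate 2. Nkg7, a protein of cytotoxic granules, had 9.61, 5.92, 4.18 and 5.86 CPM in lean and 19.2, 16.7, 16.5 and 23.8 CPM in obese VAT (log2 fold change 1.70, SE 0.26, adjusted p = 0.000145). The T cell and natural killer cell gene Cd2 rose by 1.33, and Tbx21, the factor that directs T helper 1 and cytotoxic cells, by 1.53 (adjusted p = 0.00123 and 0.00124). In the B cell list 4 of 10 rose (2 without obese replicate 4). Pax5, which sets B cell identity, had 54.4, 51.2, 9.33 and 28.5 CPM in lean and 80.5, 108, 67.1 and 135 CPM in obese VAT (log2 fold change 1.51, SE 0.36, adjusted p = 0.00683). Lean replicate 3 was the lowest of the 8, and all obese libraries lay above all lean ones. Ms4a1, a further defining B cell gene, had a log2 fold change of 0.90 and did not pass.

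Plasma cell genes varied widely between mice. The joining chain gene Jchain, which links antibody units for secretion, measured 471, 169, 77.7 and 182 CPM in lean and 1581, 789.5, 476 and 958 CPM in obese VAT. The shallow replicate 1 was highest in both groups, and the lowest obese library, replicate 3, was just above lean replicate 1. Its rise by 2.12 (SE 0.55, adjusted p = 0.0138) was lost in 2 fits (adjusted p = 0.0527 to 0.0594 without lean replicate 3 and obese replicate 1) and by DESeq2 (adjusted p = 0.0531), and was 2.71 without lean replicate 1. Mzb1, a chaperone of antibody folding, rose from 9.37 ± 7.01 to 54.2 ± 41.6 CPM (log2 fold change 2.77, SE 0.52, adjusted p = 0.00095, and adjusted p = 0.0586 by DESeq2, log2 fold change 2.07 without obese replicate 1), and Pou2af1, a B cell coactivator, by 2.17 (adjusted p = 0.000943) and by more than in SAT, where it was 0.23 (adjusted p of the difference 0.00639). Across the list 3 of 7 members rose. Lymph nodes lie within mesenteric fat, so markers of their stroma were read beside these genes. Of 6 tested stromal genes 1 rose, Ccl19 (0, 0.239, 0.214 and 0.221 CPM in lean and 2.3, 6.77, 2.4 and 0.685 CPM in obese VAT, log2 fold change 3.79, SE 0.73, adjusted p = 0.00129, log2 fold change 2.92 without obese replicate 2). Cxcl13 and Ccl21a had log2 fold changes of -0.04 and 0.45 and did not pass, Madcam1 and Glycam1 did not pass the filter on low counts, and the part of lymph node tissue in the lymphocyte values was not tested. Mast cell genes rose in 3 of 6 members. The mast cell protease Cpa3 had 1.92, 2.45, 3.00 and 4.09 CPM in lean and 5.75, 15.5, 6.32 and 10.8 CPM in obese VAT (log2 fold change 1.72, SE 0.30, adjusted p = 0.000562), with obese replicate 1 the lowest of its group for each of Cpa3, Mcpt4 and Cma1.

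**Figure D3:**
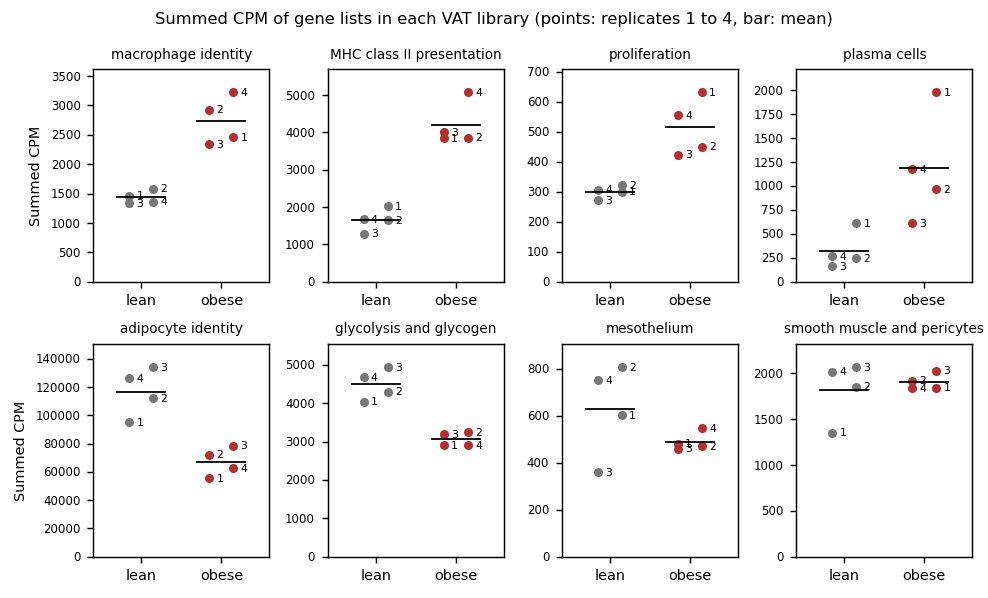
Summed TMM-scaled CPM of all transcripts of 8 gene lists in each VAT library, 1 panel per list, lean in grey and obese in red. Each point is 1 library numbered by replicate, the bar is the mean of 4, and each axis starts at 0. Obese libraries lie above lean ones for macrophage identity, MHC class II and proliferation and below them for adipocyte identity and glycolysis and glycogen, while the groups overlap for plasma cells, mesothelium and smooth muscle.

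Cell cycle genes rose in 14 of 17 tested members and none fell (1 with counts summed per gene, median log2 fold change 1.26), with 9 without obese replicate 4. Rrm2, a subunit of ribonucleotide reductase that supplies DNA building blocks, stood at 9.61, 6.76, 5.79 and 10.8 CPM in lean and 39.1, 18.8, 20.7 and 29.2 CPM in obese VAT (log2 fold change 1.72, SE 0.24, adjusted p = 6.27e-05). The mitotic genes Kif11, a spindle motor, Ccna2, a cyclin, and Cdk1, the kinase it activates, rose by 1.76, 1.61 and 1.51 (adjusted p = 0.000261, 0.000466 and 0.000478). For each of Rrm2, Kif11 and Ccna2 obese replicate 1 was the highest library. Mki67 and Top2a, the usual markers of dividing cells, did not pass the filter on low counts. Which cells carried these RNAs is not given by whole tissue. In SAT 4 members of the list rose and 1 fell, beside 6.2% and 4.85% of all tested entries there, and none of the 17 differed between the tissues in the test of the difference.

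Stress and secretion genes changed in small numbers. Of 13 tested genes of senescence and cell cycle arrest 3 rose and 2 fell (5 without lean replicate 1 for those that rose). In the unfolded protein response list 4 of 24 rose and 1 fell. The chaperone cofactors Manf, Sdf2l1 and Creld2 rose by 0.80, 1.0 and 0.93 (adjusted p = 0.000898, 0.00095 and 0.00308). Obese replicate 1, the library with the highest Jchain and Mzb1, was also the highest for Manf (195, 131, 117 and 153 CPM), Sdf2l1 and Creld2. Immediate early genes rose in 2 of 17 (1 without lean replicate 2), and 1 fell without lean replicate 1. Atf3, a transcription factor induced by stress, went from 12.2, 14.1, 21.1 and 14.4 CPM in lean to 57.9, 94.3, 76.2 and 138 CPM in obese VAT (log2 fold change 2.54, SE 0.24, adjusted p = 3.81e-07). Its rise was larger than in SAT (0.90, adjusted p of the difference 0.00318), whereas the immediate early genes Fos and Jun had log2 fold changes of 0.33 and 0.18 and did not pass. Hmox1, heme oxygenase, rose from 53.6 ± 14.2 to 129 ± 75.3 CPM (log2 fold change 1.25, SE 0.26, adjusted p = 0.00255), with obese replicate 4 far above its group.

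The extracellular matrix moved little in its collagens and more in its enzymes. Of 16 collagen genes 2 rose and 2 fell (1 without lean replicates 1, 2, 3 and 4 and obese replicates 1, 2 and 3 for those that rose, 1 without lean replicate 3 and obese replicate 2 for those that fell). The main fibrillar collagens Col1a1, Col1a2 and Col3a1 had log2 fold changes of 0.37, 0.33 and -0.01 and did not pass. Col8a1, a short-chain collagen, rose by 0.91 (adjusted p = 0.00535), and Col4a3, a basement membrane chain, fell with a log2 fold change of -1.26 (adjusted p = 0.00181). In the list of proteases, inhibitors and fibrosis genes 9 of 29 rose and 2 fell (5 without obese replicate 4 for those that rose, 1 without lean replicate 2 and obese replicates 3 and 4 for those that fell). Mmp3, a protease that cuts many matrix proteins, rose by 0.87 (adjusted p = 0.00354) and Mmp12, the elastase of macrophages, by 3.90 (adjusted p = 0.00114) from 0, 0.179, 0.107 and 0.331 CPM in lean to 4.22, 2.06, 0.958 and 5.22 CPM in obese VAT. Ccn2, a growth factor of connective tissue, rose from 64.9 ± 13.1 to 130.3 ± 24.7 CPM (log2 fold change 1.03, SE 0.21, adjusted p = 0.00241). Timp4, an inhibitor of these proteases that adipocytes make, fell from 31.4 ± 13.5 to 13.7 ± 4.22 CPM (log2 fold change -1.20, SE 0.26, adjusted p = 0.00396).

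Adipocyte genes were lower in obese VAT. Of 25 tested genes of adipocyte identity 11 fell and none rose, with a median log2 fold change of -0.59 (7 without lean replicate 3 and obese replicate 4). Summed over the list, lean VAT held 94985, 112026, 134157 and 126151 CPM and obese VAT 55759, 72098, 78579 and 62624 CPM. Car3, a carbonic anhydrase of adipocytes, makes up a large part of that sum, with 36643, 43174, 57714 and 49799 CPM in lean and 12858, 19415, 22067 and 17056 CPM in obese VAT (log2 fold change -1.39, SE 0.17, adjusted p = 9.79e-06). Thrsp, which promotes fatty acid synthesis, fell with a log2 fold change of -1.13 (adjusted p = 0.000107) and Adig, a small adipocyte protein, with -0.76 (adjusted p = 0.00881). Adipoq had a log2 fold change of -0.58 (adjusted p = 0.0191), and its call was lost in 2 fits (adjusted p = 0.051 to 0.0811 without lean replicates 2 and 3). Fabp4, Pparg (split over 13 transcripts) and Cidec, also defining adipocyte genes, had log2 fold changes of -0.45, -0.34 and -0.60 that did not pass the test, and Lep, the gene of leptin, had 0.25 (adjusted p = 0.476). Macrophage identity genes summed to 1337 to 1584 CPM in lean and 2345 to 3227 CPM in obese VAT over the same libraries. What part of the lower adipocyte values goes with the higher values of macrophage genes was not tested, and shares of cells were not measured.

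Among the genes of fatty acid synthesis most called enzymes fell while both desaturases rose. Of 24 tested genes 10 fell and 3 rose. Fasn, fatty acid synthase, had 179, 184, 157 and 136 CPM in lean and 76.7, 82.9, 59.8 and 73.0 CPM in obese VAT (log2 fold change -1.17, SE 0.21, adjusted p = 0.000582). Elovl6, which elongates the product of Fasn, had 417, 422, 357 and 255 CPM in lean and 196, 184, 130.3 and 139 CPM in obese VAT (log2 fold change -1.16, SE 0.19, adjusted p = 0.000294). No obese library of either gene reached the lowest lean one. Supply genes fell with them, with log2 fold changes of -0.75 for the citrate carrier Slc25a1, -0.85 for malic enzyme Me1 and -1.40 for transketolase Tkt (adjusted p = 0.000304, 0.00588 and 2.84e-06). The stearoyl-CoA desaturases, which put a double bond into saturated fatty acids, went the other way. Scd1 rose from 64974, 87015, 79714 and 47450.1 CPM in lean to 158610.0, 177210.0, 179477 and 113562 CPM in obese VAT (log2 fold change 1.17, SE 0.28, adjusted p = 0.0074), and Scd2 from 1192 ± 226 to 3005 ± 1085 CPM (log2 fold change 1.34, SE 0.24, adjusted p = 0.000742). Reads of these close paralogs may have been split between them. Insig1, which holds back the factor SREBP when sterols are plentiful, rose by 0.85 (adjusted p = 0.00634), while Srebf1 and Acacb had log2 fold changes of -0.58 and 0.09 that did not pass.

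In SAT more of the called genes of this list rose than fell, with 12 of the 24 genes up, 3 down (beside 6.2% and 4.85% of all tested entries in SAT) and a median log2 fold change of 0.61 against -0.30 in VAT. The diet response differed between the tissues for 11 of the 24 genes, each with the lower value in VAT. For Elovl6 the log2 fold change was 1.08 in SAT, and the difference was -2.26 (SE 0.16, adjusted p = 6.24e-09). For Me1 it was 1.39 in SAT and the difference -2.26 (SE 0.22, adjusted p = 1.24e-06). Fasn had 0.21 in SAT (adjusted p = 0.575) and a difference of -1.33 (SE 0.19, adjusted p = 0.000298). Scd2 rose in both tissues and less in VAT (1.34 against 2.89, adjusted p of the difference 1.24e-06). Of the 11, the differences of Idh1 and Tkt did not pass in every fit (adjusted p = 0.0574 without obese replicate 4 for Idh1, adjusted p = 0.0534 to 0.0677 without lean replicate 3 and obese replicate 2 for Tkt). Thrsp had log2 fold changes of -1.13 in VAT and -1.12 in SAT, with a difference of 0.02 (SE 0.17).

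**Figure D4:**
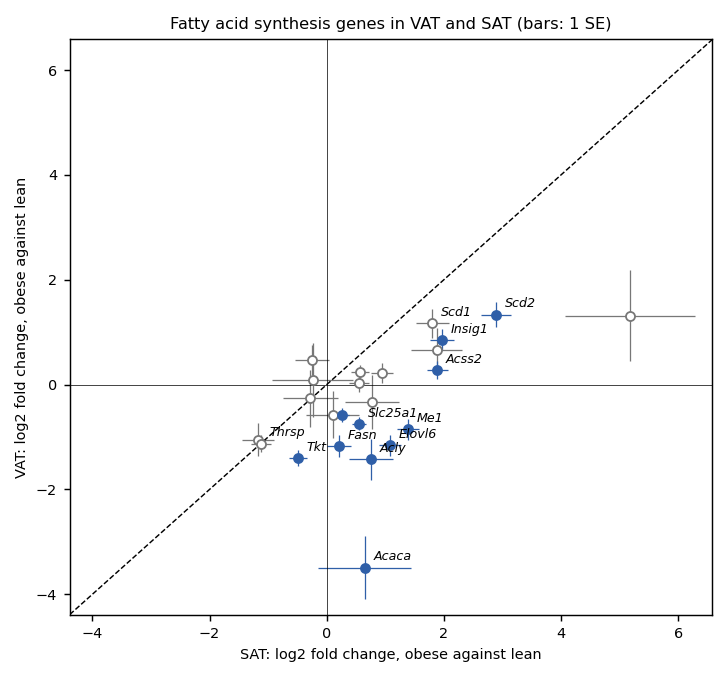
Log2 fold change of obese against lean mice for the 24 tested genes of fatty acid synthesis, in VAT (vertical axis) and SAT (horizontal axis), with bars of 1 standard error. Filled points are genes whose diet response differed between the tissues at an adjusted p below 0.05 with the mouse as a block, and the dashed line marks equal change. Elovl6, Me1 and Slc25a1 lie to the lower right, with positive values in SAT and negative values in VAT, and Scd1 and Scd2 lie above 0 on both axes.

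Storage and release of triglyceride changed in part. Of 18 triglyceride synthesis genes 4 fell (2 without obese replicate 4) and 1 rose, Lpin3, at low CPM (1.20, adjusted p = 0.0372), which was not called in 6 fits (adjusted p = 0.0529 to 0.155 without lean replicates 2, 3 and 4 and obese replicates 2, 3 and 4). Mogat2, a monoacylglycerol acyltransferase, fell from 9.61, 3.35, 5.04 and 8.4 CPM in lean to 1.92, 0.743, 2.01 and 1.54 CPM in obese VAT (log2 fold change -2.04, SE 0.50, adjusted p = 0.00908). In the list of lipid droplet coat and lipolysis 3 of 22 rose and 4 fell (1 without obese replicates 2 and 4 for those that rose, 2 without obese replicate 4 for those that fell). The hormone-sensitive lipase gene Lipe fell with a log2 fold change of -0.67 (adjusted p = 0.0123), and the droplet coat gene Plin2, which macrophages also use, rose by 1.15 (adjusted p = 0.0052). Hcar1, the adipocyte receptor through which lactate restrains lipolysis, had 157, 316, 401 and 278 CPM in lean and 82.0, 94.1, 87.4 and 82.4 CPM in obese VAT (log2 fold change -1.75, SE 0.22, adjusted p = 1.57e-05). The obese values lay within a narrow band below every lean library, and the fall was larger than in SAT (-0.86, adjusted p of the difference 0.00713). The beta-3 adrenergic receptor Adrb3, through which nerves start lipolysis in mice, had 113, 215, 218 and 172 CPM in lean and 79.3, 91.7, 114 and 84.5 CPM in obese VAT (log2 fold change -0.97, SE 0.26, adjusted p = 0.0165), not called in 2 fits (adjusted p = 0.0543 to 0.0604 without lean replicates 2 and 3). Caveolae, the small membrane pockets that fill the adipocyte surface, had 3 of 7 genes down, among them Cav1 (-0.59, adjusted p = 0.00671), which differed from SAT (0.21, adjusted p of the difference 0.0117).

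Glucose handling was lower throughout its called members. Of 22 glycolysis and glycogen genes 9 fell and none rose (median log2 fold change -0.54, 5 without lean replicate 3). The 4 with the smallest p all belong to glycogen. The phosphorylases Pygl and Pygb, which release glucose from glycogen, fell with log2 fold changes of -1.24 and -1.14 (adjusted p = 2.13e-06 and 2.85e-06). Gys1, glycogen synthase, had 318, 297, 374 and 329 CPM in lean and 159.8, 185, 195 and 119 CPM in obese VAT (log2 fold change -1.0, SE 0.13, adjusted p = 2.56e-05), and the branching enzyme Gbe1 had 307, 347, 302 and 288 CPM in lean and 184, 167, 159.7 and 134 CPM in obese VAT (log2 fold change -0.95, SE 0.12, adjusted p = 1.35e-05). Genes of both building and breaking glycogen stood lower, with no overlap between the groups for any of the 4. Gbe1 had a log2 fold change of -0.09 in SAT, and the tissues differed (adjusted p = 0.00225), whereas Pygl and Pygb had -1.12 and -1.04 there. Outside that list, Pfkfb1, which makes an activator of glycolysis, fell from 9.72 ± 1.83 to 2.51 ± 0.337 CPM (log2 fold change -1.93, SE 0.29, adjusted p = 0.000112). Of the core glycolytic enzymes Pkm, Gpi1 and Pgk1 had log2 fold changes of -0.55, 0.17 and 0.01 that did not pass.

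Insulin signalling genes fell in 3 of 16 tested genes. Irs1, the docking protein that carries the signal from the insulin receptor and lies on chromosome 1 from 82210822 to 82269338, had 209, 202, 229 and 147 CPM in lean and 68.2, 64.4, 86.1 and 53.0 CPM in obese VAT. The highest obese library was well below the lowest lean one (log2 fold change -1.53, SE 0.17, adjusted p = 2.13e-06). The regulatory subunit of PI3-kinase, Pik3r1, fell with a log2 fold change of -0.98 (adjusted p = 0.000794), and fell more than in SAT (-0.07, adjusted p of the difference 0.00644). Irs1 fell in SAT as well (-1.72), and its difference between tissues was 0.18 (SE 0.16, adjusted p = 0.66). Irs2, Akt2 and Foxo1 had log2 fold changes of 0.37, -0.39 and 0.08 and did not pass. Slc2a4, the insulin-responsive glucose transporter, was counted at only 1.92, 1.26, 1.61 and 2.43 CPM in lean and 0, 0.825, 0.192 and 0.514 CPM in obese VAT in the best covered of its 5 transcripts. Its fitted change of -1.88 (adjusted p = 0.0425) was not called in several fits (adjusted p = 0.0602 to 0.136 without lean replicates 3 and 4 and obese replicates 1, 3 and 4), nor with counts summed over the gene (adjusted p = 0.0583).

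Part of the genes of pyruvate, citrate cycle and branched-chain amino acid use fell. Of 27 genes of pyruvate and the citrate cycle 10 fell and none rose (median log2 fold change -0.51, 5 without lean replicate 3). Pdha1, the catalytic subunit of pyruvate dehydrogenase, had 1097, 1371, 1402 and 1269.8 CPM in lean and 653, 792, 799 and 700.3 CPM in obese VAT (log2 fold change -0.80, SE 0.12, adjusted p = 9.95e-05), and Dlat and Pdhx of the same complex fell with log2 fold changes of -0.63 and -0.51 (adjusted p = 0.000294 and 0.00512). The lean and obese libraries did not overlap for any of the 3. Dlat had 0.10 in SAT, and this differed from VAT (adjusted p = 0.0067). The list for breakdown of branched-chain amino acids, a fuel and lipid source of adipocytes, fell in 12 of 25 genes and rose in none (median log2 fold change -0.67). Dbt, the core of the enzyme complex that commits these amino acids to oxidation, had 23.7, 30.9, 34.7 and 33.6 CPM in lean and 13.4, 15.6, 15.8 and 12.8 CPM in obese VAT (log2 fold change -1.11, SE 0.17, adjusted p = 0.000145). Further down the pathway, Mccc2, Ivd, Hibch and Mmut, enzymes of leucine, valine and propanoate breakdown, fell with log2 fold changes of -0.69, -0.79, -0.75 and -0.78 (adjusted p = 0.000753, 0.000773, 0.00205 and 0.000486). In SAT 9 of the same 25 genes fell, and the tissues differed in 1, Mmut (adjusted p = 0.0166, not passed in 2 fits with adjusted p = 0.0673 to 0.0774 without lean replicate 3 and obese replicate 4).

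The respiratory chain itself showed fewer changes. Of 46 nuclear-encoded oxidative phosphorylation genes 4 fell and none rose, and the median log2 fold change was -0.10. The count moved with 6 of the 8 libraries (0 without lean replicates 3 and 4, 2 without lean replicate 2 and obese replicates 2 and 4 and 8 without lean replicate 1). Uqcrc2, a core subunit of complex III, went from 492 ± 79.6 to 351 ± 43.0 CPM (log2 fold change -0.49, SE 0.13, adjusted p = 0.019), but its call was lost in 3 fits (adjusted p = 0.0575 to 0.0642 without lean replicates 2, 3 and 4). Fatty acid oxidation had 3 of 22 genes down, with 1 without lean replicate 4, 5 without obese replicate 3 and 10 without lean replicate 1. Ehhadh, an enzyme of peroxisomal oxidation, fell from 11.7 ± 3.99 to 4.75 ± 0.738 CPM (log2 fold change -1.37, SE 0.24, adjusted p = 0.000618), and its SAT value was 0.29 (adjusted p of the difference 0.0029). These lists lie beside the lower share of mitochondrially encoded counts given above, and the part of fewer mitochondria or fewer adipocytes in them was not tested.

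**Figure D5:**
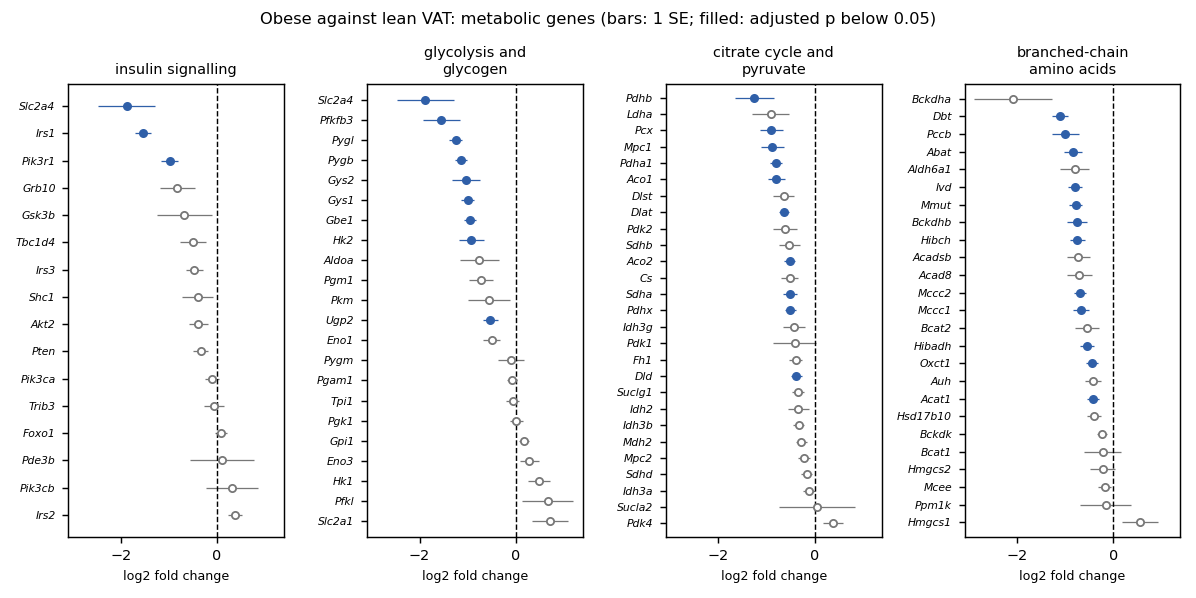
Log2 fold change with 1 standard error, obese against lean VAT, for every tested gene of 4 lists (insulin signalling, glycolysis and glycogen, citrate cycle and pyruvate, branched-chain amino acids), sorted within each list. Filled blue points passed an adjusted p below 0.05, open points did not, and the dashed line marks no change. The called points of all 4 lists lie below 0, and those of Irs1, Pygl, Pdha1 and Dbt at -1.53, -1.24, -0.80 and -1.11.

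Genes outside these lists added single large changes. Tph2, the neuronal form of the enzyme that starts serotonin synthesis, on chromosome 10 from 114914546 to 115020927, had 7.69, 6.4, 8.79 and 19.8 CPM in lean and 201, 150.3, 90.7 and 62.7 CPM in obese VAT (log2 fold change 3.50, SE 0.58, adjusted p = 0.000315). The lowest obese library was more than 3 times the highest lean one, and the rise exceeded that in SAT (1.27, difference 1.83, adjusted p = 0.00286). Gm35763, a noncoding RNA on chromosome 5 from 149494928 to 149507623, rose from 1.92, 1.73, 1.29 and 1.88 CPM in lean to 18.4, 30.6, 23.7 and 17.1 CPM in obese VAT (log2 fold change 3.76, SE 0.31, adjusted p = 5.37e-08) and by 3.27 in SAT. H2-M2, a nonclassical MHC class I gene, rose from 2.15 ± 0.901 to 17.4 ± 5.59 CPM (log2 fold change 3.11, SE 0.41, adjusted p = 2.41e-05). Rgs1, which dampens chemokine receptors in leukocytes, rose by 3.34 (adjusted p = 0.000211), Rnf128, a ubiquitin ligase, by 3.35 (adjusted p = 9.19e-05), and Capg, an actin capping protein of macrophages, by 2.99 in 1 of its 5 transcripts (adjusted p = 7.76e-06) and by 1.84 with counts summed over the gene. For Pik3c3, a lipid kinase of autophagy, 1 of 4 transcripts rose by 3.16 (adjusted p = 0.000179). Cd53, a tetraspanin found on all leukocytes, went from 99.6 ± 19.9 to 282 ± 91.5 CPM (log2 fold change 1.52, SE 0.19, adjusted p = 1.62e-05).

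Agt and Enpep, genes of the angiotensin system, were both downregulated. Agt, the angiotensin precursor, had 18.6, 10.3, 9.33 and 12.8 CPM in lean and 2.68, 2.06, 3.16 and 1.71 CPM in obese VAT (log2 fold change -2.36, SE 0.35, adjusted p = 0.000107). Enpep, an aminopeptidase that shortens angiotensin II and lies on chromosome 3 from 129062824 to 129126369, had 867, 1005, 1122 and 833 CPM in lean and 343, 352, 354 and 235 CPM in obese VAT (log2 fold change -1.58, SE 0.13, adjusted p = 7.39e-08). Enpep differed from SAT, where its log2 fold change was 0.60, by -2.18 (SE 0.18, adjusted p = 8.79e-08). For Agt the fall was smaller than in SAT (-4.76, adjusted p of the difference 0.0209, not passed in 4 fits with adjusted p = 0.0527 to 0.0992 without lean replicate 2 and obese replicates 2, 3 and 4). Nat8l, which makes N-acetylaspartate in neurons and fat cells, had 320.3, 289.7, 311 and 163 CPM in lean and 49.8, 74.4, 95.3 and 62.9 CPM in obese VAT (log2 fold change -1.92, SE 0.21, adjusted p = 2.11e-06). B3galt2, a galactosyltransferase, fell from 902 ± 226 to 303 ± 111 CPM (log2 fold change -1.58, SE 0.23, adjusted p = 7.45e-05), with -0.20 in SAT (adjusted p of the difference 0.000881). Fam13a, a gene linked to fat distribution, fell from 392 ± 121 to 121 ± 30.0 CPM (log2 fold change -1.70, SE 0.29, adjusted p = 0.000475), and the neurotrophin receptor Ntrk3 with a log2 fold change of -2.04 (adjusted p = 0.000279). Log2 fold changes of -2.76 in Gm454, -2.55 in Gm42517, -2.0 in Gm38790 and -1.78 in Gm52294 belong to genes with provisional names (adjusted p = 1.40e-06, 0.000336, 0.000154 and 0.0165), and the last was not called in 1 fit (adjusted p = 0.138 without lean replicate 2) and by DESeq2 (adjusted p = 0.0523), its log2 fold change being -1.16 without lean replicate 2. Folh1, a folate hydrolase, and Aoc3, an amine oxidase of adipocytes and vessels, fell with log2 fold changes of -1.78 and -1.80 (adjusted p = 0.000512 and 0.00255). Aoc3 was read from 1 of its 3 transcripts, and all of them added up gave a log2 fold change of -0.97 (adjusted p = 0.000445).

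Detoxifying enzymes and thermogenic genes each changed in both directions. Among cytochrome P450 and related oxidase genes 6 of 20 fell and 3 rose (1 without obese replicate 3 for those that rose). Summed over the list, lean VAT held 5792, 9478, 10659 and 7957 CPM and obese VAT 1729.7, 2666, 3050.4 and 2689 CPM, and most of this sum is Cyp2e1 and the lipase Ces1d. Ces1d fell from 3248 ± 602 to 1501 ± 358 CPM (log2 fold change -1.11, SE 0.19, adjusted p = 0.000321), while Cyp1b1, an enzyme of steroid and foreign compound oxidation, rose by 0.77 (adjusted p = 0.00263). Antioxidant and glutathione enzymes had 1 of 31 up and 3 down. The glutathione transferase Gsta4, which clears products of lipid peroxidation, fell from 73.2 ± 19.9 to 31.3 ± 8.24 CPM (log2 fold change -1.22, SE 0.24, adjusted p = 0.00137). Of 8 tested thermogenic genes 2 rose and 2 fell. Ucp1, the uncoupling protein, had 0, 0.299, 0.322 and 0.884 CPM in lean and 9.58, 9.74, 15.4 and 6.51 CPM in obese VAT (log2 fold change 4.51, SE 0.52, adjusted p = 4.61e-06, log2 fold change 5.11 without lean replicate 4), and in lean VAT it rested on few counts. Otop1, a proton channel of brown fat, rose by 1.75 (adjusted p = 0.000197), whereas Dio2, which activates thyroid hormone, fell with a log2 fold change of -2.68 and Ebf2, a factor of brown fat identity, with -1.38 (adjusted p = 0.00135 and 0.00795), Dio2 with -3.30 without obese replicate 4. Of 29 tested genes of secreted factors and their receptors 2 rose and 5 fell (3 without lean replicate 2 and obese replicate 4 for those that fell). The secreted factor Metrnl rose by 1.0 and the adiponectin receptor Adipor2 fell with a log2 fold change of -0.70 (adjusted p = 0.000165 and 0.00683), the latter with 0.64 in SAT (adjusted p of the difference 0.000193).

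Other cell types that dissected mesenteric fat can hold were read by their markers. None of 14 endothelial, 10 smooth muscle and pericyte, 12 mesothelial and 6 clock genes passed the test in either direction, which does not show that they are equal. Their median log2 fold changes were 0.26, -0.06, -0.46 and -0.61. The clock list summed to 76.2, 68.9, 397 and 75.8 CPM in lean and 108.8, 105, 167 and 138 CPM in obese VAT, and lean replicate 3 lay above all other libraries while the other 3 lean sums lay below every obese one. The mesothelial count of downregulated genes was 2 without lean replicate 3. In the smooth muscle and pericyte list the count of upregulated genes was 1 without lean replicates 2 and 4, and of downregulated genes 1 without lean replicate 1 and obese replicate 4. The mesothelial list summed to 601, 807, 358 and 750.1 CPM in lean and 481, 469.5, 460.3 and 547 CPM in obese VAT, lowest in lean replicate 3. Intestinal epithelium, which borders this fat, had 3 of 11 genes down and none up (1 without obese replicates 3 and 4 and 5 without lean replicate 3, with 1 without lean replicate 4 up). Muc2, the mucin of goblet cells, had 7.05, 30.4, 5.68 and 13.3 CPM in lean and 8.43, 8.0, 3.07 and 4.88 CPM in obese VAT (log2 fold change -1.37, SE 0.40, adjusted p = 0.0272, adjusted p = 0.0876 to 0.335 without lean replicate 2 and obese replicates 3 and 4, log2 fold change -0.62 without lean replicate 2), and Vil1 and Epcam, which define the epithelium, had log2 fold changes of -1.18 and -0.88 that did not pass. The intestinal list summed to 64.7, 155, 42.1 and 152 CPM in lean and 101, 58.6, 47.5 and 65.0 CPM in obese VAT, highest in lean replicates 2 and 4. Of the exocrine pancreas list 4 genes were tested, of which Cela1, an elastase also found outside the pancreas, rose (0.89, adjusted p = 0.00266) and Zg16, a secretory granule protein of pancreas and intestine, fell (-4.18, adjusted p = 0.000989). Progenitor and fibroblast genes rose in 3 of 16 tested genes, among them the surface protein Icam1 (0.85, adjusted p = 0.000201). Of the remaining lists, nerve and glia had 2 of 7 genes up (1 without lean replicates 1, 2, 3 and 4 and obese replicates 2, 3 and 4), with S100b of glial cells and adipocytes at 0.91, adjusted p = 0.00579. Erythrocyte genes had 1 of 6 up (0 without lean replicate 3 and obese replicate 2, 2 without lean replicates 1 and 4 and 3 without obese replicate 1), neutrophil genes 1 of 2 (0 without lean replicates 2 and 3 and obese replicates 1, 2 and 4) and skeletal muscle genes 1 of 5.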

How the data were processed

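RNA was sequenced from whole mesenteric VAT and inguinal SAT of 4 obese and 4 lean mice, 1 library per mouse and tissue. According to the submitters' processing notes, reads were trimmed with Trim Galore 0.6.6, aligned with HISAT2 2.2.0 to GRCm39 and counted with HTSeq 0.13.5, and the study's methods give another version of Trim Galore. The entries of the table carry RefSeq transcript names. The authors deposited 1 table with raw counts and, beside them, CPM values (counts per 1000000 counts of the library), and the counts were used here. Since counts are per transcript, reads shared by several transcripts of a gene may be lost or split.

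The 13288 entries that exceeded 1 CPM in 3 or more of the 16 libraries were fitted in R 4.3.3 with edgeR 4.0.16 (TMM scaling, quasi-likelihood F-test, Benjamini-Hochberg adjustment over all entries), with all 4 groups sharing the estimate of spread. The VAT response was set against SAT by an interaction term with the mouse as a block. Calls use an adjusted p below 0.05, with or without a log2 fold change beyond 1.5. The labels do not say that a replicate number ties lean to obese mice, and the deviations of same-numbered libraries did not all correlate above 0.1, so no such block was used. Checks were run with DESeq2 1.42.0 and limma 3.58.1, other scalings and filters, counts summed per gene, and without each library. P-values rest on the spread between libraries within the 4 groups of 4, estimated over both tissues together. The VAT fit had no term for the mouse, so it treated the 2 tissues of a mouse as independent. With the 8 VAT libraries alone, 757 entries were upregulated and 446 downregulated at any size.

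The tissue, the 52 gene lists and the tests were chosen with earlier results of these data known, so a list's count is a description and has no test of its own. In the insulin signalling list 1 symbol was corrected (to Pdpk1) after the files were seen. Each gene is represented by its tested transcript with the highest mean CPM. Shares over all tested entries count every transcript, so they are not taken over the same kind of set. Named genes are, outside the study's table of top VAT genes (genes of its other tables were not left out), the 12 called VAT entries that rose most and the 12 that fell most by log2 fold change, and the 6 with the highest mean CPM in each direction, among those without overlap between the groups and with a mean CPM of at least 5 in the higher group. From each list, called members and the members that define it were named as well, and a few of these are not reported here. Promoters come from RefSeq tables on GRCm38.p6, a different build from the counted annotation, and were joined by symbol alone.

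A count of 0 allows up to 3 counts, or up to 1.92 TMM-scaled CPM in the shallowest VAT library, and such limits cover counting error only.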

Additional observations from a re-analysis of the deposited data

Results flagged for a closer look

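In each group of 4 libraries the gap between the highest or lowest value and the nearest other one was divided by the whole range, and a library was taken as far from the others above Dixon's 95% critical value for a group of that size. Over 376 pairs of a named gene and a group this happened 26 times, and chance alone gives about 1 in 20. Obese replicate 4 was far above the other obese libraries for Atp6v0d2 (0.859), Capg (0.858), Cd9 (0.851), Col8a1 (0.914), Ctsk (0.938), Gpnmb (0.947), Hmox1 (0.842) and Tbx21 (0.87), the share of the range being given in parentheses. Lean replicate 1 was far above the other lean libraries for Ccl5 (0.832), Ciita (0.845), Cyba (0.88), Tbx21 (0.861) and Trem2 (0.907). Lean replicate 1 was far below the other lean libraries for Ccl19 (0.896), Ces1d (0.877), Mccc2 (0.867) and Uqcrc2 (0.939). Obese replicate 1 was far above the other obese libraries for Acacb (0.93), Mzb1 (0.91), Pik3c3 (0.831) and Tlr2 (0.859). Obese replicate 4 was far below the other obese libraries for Enpep (0.905) and Lpl (0.94). Lean replicate 2 was far above the other lean libraries for Gm52294 (0.917). Lean replicate 3 was far above the other lean libraries for Pik3r1 (0.921). Obese replicate 2 was far above the other obese libraries for Ccl22 (0.859). Ccl19 had 0 counts in lean replicate 1, which allows up to 1.92 TMM-scaled CPM, so that its value is not shown to lie below the others, and Ciita and Trem2 rest on few counts there. The cause was not tested.

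The response to diet differed between VAT and SAT, by the test of the difference with the mouse as a block (edgeR, adjusted p below 0.05), for 47 of the named genes. The difference in log2 fold change, VAT minus SAT, was positive for Ccl19 (4.96), Gpnmb (2.92), Agt (2.40), Atp6v0d2 (2.36), Jchain (2.19), Pou2af1 (1.84), Tph2 (1.83), Pax5 (1.74), Ctsk (1.63), Atf3 (1.58), Itgax (1.55) and Lgals3 (1.45). Smaller positive differences were those of Ccl8 (1.44), Otop1 (1.26), H2-Ab1 (1.11), Tyrobp (1.07), Creld2 (1.05), H2-Aa (1.05), H2-Eb1 (0.99), Fcer1g (0.94), Cd74 (0.86), C1qb (0.83), Ifi30 (0.81) and Manf (0.78). It was negative for Elovl6 (-2.26), Me1 (-2.26), Enpep (-2.18), Gm52294 (-1.88), Ehhadh (-1.61), Scd2 (-1.61), B3galt2 (-1.41), Adipor2 (-1.38), Fasn (-1.33), Slc25a1 (-1.30) and Insig1 (-1.08), and for Gm454 (-1.08), Pik3r1 (-0.91), Sqle (-0.90), Gbe1 (-0.88), Nat8l (-0.86), Tkt (-0.85), Hcar1 (-0.83), Idh1 (-0.81), Mmut (-0.78), Cav1 (-0.77), Cd36 (-0.77) and Dlat (-0.73). Beside the 7 genes named above, leaving out 1 mouse ended the call, for Atp6v0d2 (adjusted p = 0.0502 to 0.112 without lean mice 3 and 4 and obese mouse 4), for Ccl19 (adjusted p = 0.094 to 0.18 without lean mouse 3 and obese mouse 2), for Cd36 (adjusted p = 0.0633 to 0.165 without lean mice 2, 3 and 4 and obese mice 3 and 4) and for Creld2 (adjusted p = 0.0573 to 0.0865 without lean mice 3 and 4 and obese mouse 1). It also ended for Gm454 (adjusted p = 0.0984 to 0.118 without lean mouse 3 and obese mouse 4), for Gm52294 (adjusted p = 0.0551 without lean mouse 2), for Itgax (adjusted p = 0.0571 to 0.0655 without lean mouse 4 and obese mouse 4) and for Jchain (adjusted p = 0.0572 to 0.104 without lean mice 3 and 4 and obese mice 2, 3 and 4). The same held for Lgals3 (adjusted p = 0.076 to 0.182 without lean mice 3 and 4 and obese mice 1, 3 and 4), for Manf (adjusted p = 0.0547 to 0.119 without lean mice 3 and 4 and obese mice 1 and 2), for Nat8l (adjusted p = 0.0547 to 0.0842 without lean mouse 2 and obese mice 2 and 4) and for Pax5 (adjusted p = 0.0559 to 0.116 without lean mice 3 and 4 and obese mice 2 and 4).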

How the results depend on the processing

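Entries called beyond a log2 fold change of 1.5 numbered 310 upregulated and 111 downregulated. Under RLE scaling, DESeq2, filterByExpr, the 8 VAT libraries alone, edgeR's newer quasi-likelihood setting, limma voom (mouse as random effect) and counts summed per gene they numbered 256 to 384 and 99 to 149. With no filter on low counts, which tests more entries, 188 were downregulated. Leaving out 1 VAT library gave 184 to 376 upregulated and 70 to 130 downregulated beyond 1.5, and 525 to 919 and 339 to 729 at any size. The lowest counts came without obese replicate 4, and 354 entries were downregulated at any size without lean replicate 3. List members upregulated numbered 116 to 174 and downregulated 70 to 119 over the same fits. The response differed between VAT and SAT for 288 entries, for 128 without the mouse as a block and for 138 to 413 without 1 mouse (184 without lean replicate 2, 154 without lean replicate 3, 138 without obese replicate 4). The causes were not tested.

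With the replicate number as a block, 300 entries were upregulated and 114 downregulated beyond 1.5, and 981 and 636 at any size. Same-numbered lean and obese libraries deviated together with correlations of 0.0813 to 0.173, not all above 0.1, and 6 of the 8 libraries correlated best with their own number, which is a hint from the data and not from the design, so the pairing is not established. Among the genes named the block ended the call of Ciita and added Fabp4 and Ms4a1.

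Of 188 genes named, 151 had an adjusted p below 0.05, and 139 of these kept it without each VAT library in turn. No gene with an adjusted p below 0.05, as reported or under the setting, changed direction under any setting listed. A change of sign in a gene called in neither fit was not counted. Over all lists and settings other than leaving out 1 library, 973 of 1040 list counts stayed within 1.5 times, as did 730 of 832 when 1 VAT library was left out. Of the counts of at least 3, those that moved further were downregulated adipocyte identity genes (17 with no filter, 11 as reported), oxidative phosphorylation genes (7 by DESeq2, limma voom and summed counts and 2 with no filter or the VAT libraries alone, 4 as reported), fatty acid oxidation genes (6 or 7 with filterByExpr, limma voom, summed counts, the block or both shallow libraries left out, 3 as reported), citrate cycle genes (16 with summed counts, 10 as reported), lipolysis genes (8 with no filter and 7 with the newer quasi-likelihood setting, 4 as reported), and upregulated lysosome genes (6 with no filter and 5 with the VAT libraries alone, 11 as reported), giant cell genes (5 with the newer setting, 3 as reported), TNF and cytokine genes (5 with no filter, the newer setting or limma voom, 3 as reported) and senescence genes (6 with no filter, 3 as reported). Of the plasma cell genes 1 rose by DESeq2, against 3 as reported, and of the B cell genes 2, against 4. Of the cytochrome P450 genes 1 rose with summed counts, against 3, and of the intestinal genes 1 fell with filterByExpr, against 3. DESeq2 gave no adjusted p for Ubd, and filterByExpr dropped 2 of the genes named. Depth limits genes near 1 CPM, since 1 count stands for 0.641 TMM-scaled CPM in lean replicate 1.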
